A study of Mus musculus with 6 samples.

Results

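The 35 genes described here serve neuronal differentiation and the neuronal cytoskeleton. By role they are 10 genes of microtubules and their regulators, 3 neurofilament genes, 3 genes of the growth cone and of axonal adhesion, 4 genes of RNA-binding proteins, 8 genes of synaptic and secretory vesicles, 4 genes of transcription factors and 3 other genes of neurons. They were listed by name and not by their measured difference, but earlier results of these data were known when the list was chosen. A gene is represented by the probe set with the highest mean signal over the 6 arrays, among the probe sets that the platform's annotation assigns to that symbol alone. The list makes up 35 of 18193 genes with such a probe set, and 83 of the 45037 probe sets tested belong to it.

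Dorsal midbrain was dissected from C57BL/6 mouse embryos at E10.5, and total RNA of 3 control and 3 *Ezh2* cko samples was put on Affymetrix A430 arrays, 1 for each sample. In the *Ezh2* cko (Wnt1-Cre+/Ezh2[SET]lox/lox), Cre driven by Wnt1 removes the stretch of *Ezh2* that encodes the SET domain, the catalytic part of the H3K27 methyltransferase. According to the methods a control embryo was either Wnt1-Cre-/Ezh2[SET]lox/lox or Wnt1-Cre+/Ezh2[SET]wt/lox, so a floxed allele is present in both groups and controls may carry Cre, whereas the labels give the genotype of each control as WT. Wnt1-Cre is also active in the neural crest, and some cells of the rostral midbrain escape recombination. By the methods and a legend, each group held 3 dissected midbrains from 2 litters. Which litter a sample came from is not in the labels, so litter could not enter the fit, and the p-values measure only the spread between these 6 samples. The values are log2 signals, in which 1 unit is a factor of 2. A signal depends on the probes, so each difference was taken within a probe set, and the number of arrays limits the precision. Sums of linear signals, given for some lists, weigh the brightest probe sets most. Where a signal is set beside the array median, that is only a rough guide to its level.

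The transcripts of the midbrain markers *Otx2*, *En1* and *En2* were well above the array medians (5.68 to 5.72) on the 6 arrays, with mean signals of 11.25, 8.15 and 12.34 over the controls and means of 11.34, 8.52 and 12.51 over the *Ezh2* cko arrays. The *Ezh2* probe set gave 11.70 ± 0.05 in the controls and 11.75 ± 0.04 in the *Ezh2* cko (SD, n = 3 each; limma, adjusted p = 0.918). Where this probe set lies relative to the deleted stretch was not determined, so it does not check the deletion. Control 1 stood apart from the other 5 arrays. On it *Xist* was at 11.70, against 5.13 to 5.36 elsewhere, and the Y-linked *Kdm5d* was at 3.03, against 8.97 to 9.25 elsewhere. Results are therefore also given without control 1.

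Newborn neurons stop dividing, leave the ventricular zone of the neural tube, and build an axon. Their microtubules contain the neuron-specific tubulin *Tubb3* and are bound by doublecortin, stathmins and MAPs, while neurofilaments fill the growing axon. Proteins that handle RNA, dock vesicles and guide axons appear with them, and zinc finger factors of the *Myt1* family act in the same transition.

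Of the 35 genes, 33 had a higher mean signal in the *Ezh2* cko than in the controls, a share of 94.3%, whereas the share over all 18193 genes was 43%. The median log2 difference of the 35 genes was 0.30, and that of all genes was -0.02. No gene of the list passed an adjusted p under 0.05 in limma, in either direction. Over all genes 0.297% passed as higher and 0.0055% as lower. The lowest adjusted p among the 35 genes was 0.151, for *Myt1l* (limma). At an unadjusted p under 0.05, 13 of the 35 genes were higher and 0 were lower in limma, against 6.12% and 2.75% of all genes. With the unpaired test of the methods, 4 of the 35 genes (11.4%) reached an unadjusted p under 0.05, each higher, against 4.51% of all genes as higher and 3.66% as lower, and 0 reached an adjusted p under 0.05. No gene of the list reached the fold of 1.75 with an unadjusted limma p of at most 0.01, the limits set in the methods, which 0.374% of all genes met as higher and 0.033% as lower. The signals of the groups did not overlap for 6 genes, each higher in the *Ezh2* cko (*Myt1l*, *Rtn1*, *Chga*, *Cntn2*, *Elavl2* and *Elavl3*), and for 0 genes that were lower. Over all genes the groups did not overlap for 7.52% that were higher and 7.88% that were lower. In such bulk samples a change in the number of neurons and a change in the RNA of each neuron cannot be told apart.

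The direction was shared, but the order of the arrays within each group was shared as well. The median deviation of the 35 genes from their own means over the 6 arrays was -0.40 on control 1, -0.01 on control 2 and -0.01 on control 3. It was -0.07 on *Ezh2* cko 1, 0.14 on *Ezh2* cko 2 and 0.31 on *Ezh2* cko 3. Control 1 had the lowest of the 6 signals for 32 of the 35 genes (91.4%) and for 20.6% of all genes. *Ezh2* cko 3 had the highest for 28 (80%) and for 16.5% of all genes. *Ezh2* cko 1 was the lowest of its group for 30 genes, and for 15 genes it lay below both control 2 and control 3. *Ezh2* cko 3 lay above every control for 31 genes, *Ezh2* cko 2 for 22 genes and *Ezh2* cko 1 for 8 genes. For 28 genes the range of the controls was wider than the difference between the group means. The median SD of the 35 genes was 0.23 in the controls and 0.21 in the *Ezh2* cko, beside medians over all genes of 0.11 and 0.09.

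**Figure D1:**
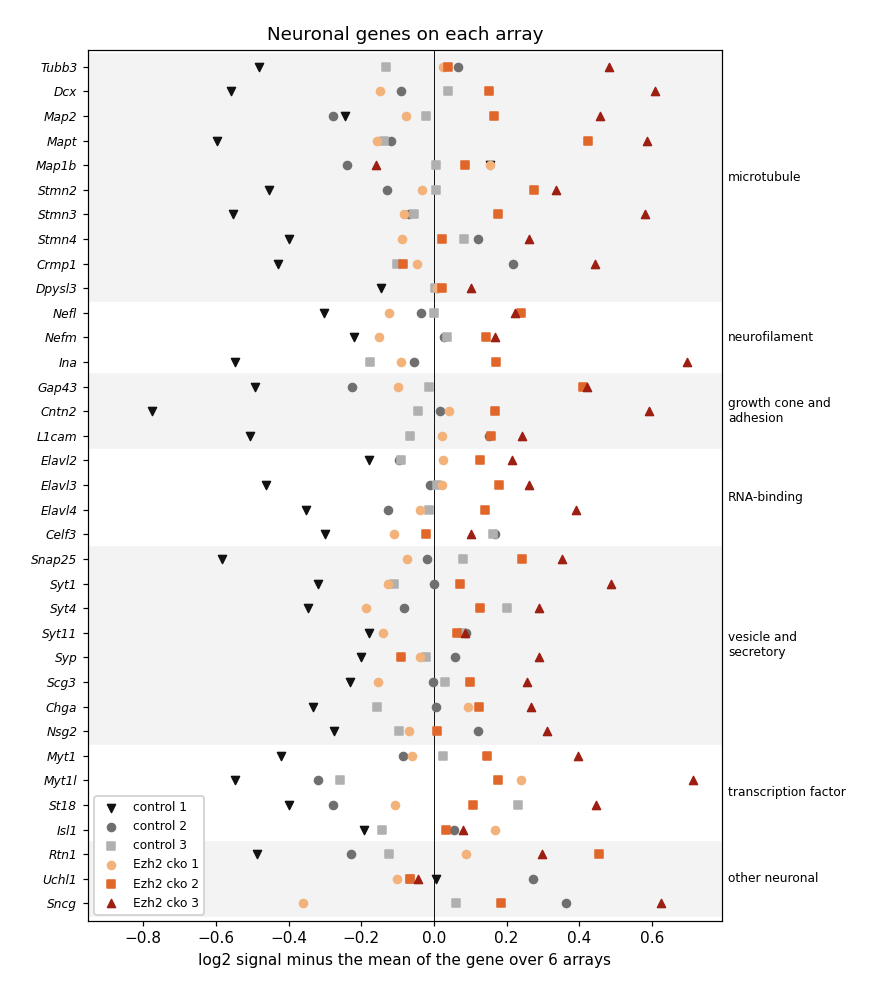
Log2 signal of each of the 35 genes on each array, minus the mean of that gene over the 6 arrays (horizontal axis), with the genes in rows by role. Each symbol is 1 array: control 1 (black triangles) is at the far left for 32 genes and *Ezh2* cko 3 (dark red triangles) at the far right for 28. Of the other 4 arrays, *Ezh2* cko 2 lies above every control for 22 genes and *Ezh2* cko 1 for 8.

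Of the 35 genes, 3 lie on the X chromosome (*Dcx*, *L1cam* and *Syp*), and control 1 was the lowest array for 3 of these 3 and for 29 of the other 32. Without control 1, the other 5 arrays resemble each other in *Xist* and the Y-linked genes. The median difference was then 0.16, 30 of the 35 genes were positive, and 4 had an unadjusted p under 0.05 in limma (*Elavl2*, *Chga*, *Myt1l* and *Rtn1*, each higher) against 4.88% of all genes as higher, and 0 of the 4 passed the adjusted p. The groups then did not overlap for 6 genes that were higher and 1 that was lower (*Celf3*), against 11.6% of all genes that were higher and 12.1% that were lower. Without *Ezh2* cko 3, the median was 0.20, 31 genes were positive and 3 (8.57%) had an unadjusted p under 0.05 in limma as higher, against 4.96% of all genes. Without both of these arrays, the median was 0.06 and 24 genes were positive. The ratio of 3′ to 5′ signal of the *Actb* control sets, a sign of RNA quality, was 1.05 on control 1 and 0.98 to 1.29 on the other controls on the log2 scale, and 0.95 to 1.09 in the *Ezh2* cko. The same ratio for Gapdh was 0.11 on control 1, 0.33 on control 2 and 0.13 on control 3, and 0.12, 0.09 and 0.33 on *Ezh2* cko 1, 2 and 3. By these measures control 1 did not stand apart, while *Ezh2* cko 3 and control 2 were high for Gapdh, and the part of RNA quality in the neuronal signals was not tested. The part of sex, litter or stage in the low neuronal signals of control 1 was not tested.

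**Figure D2:**
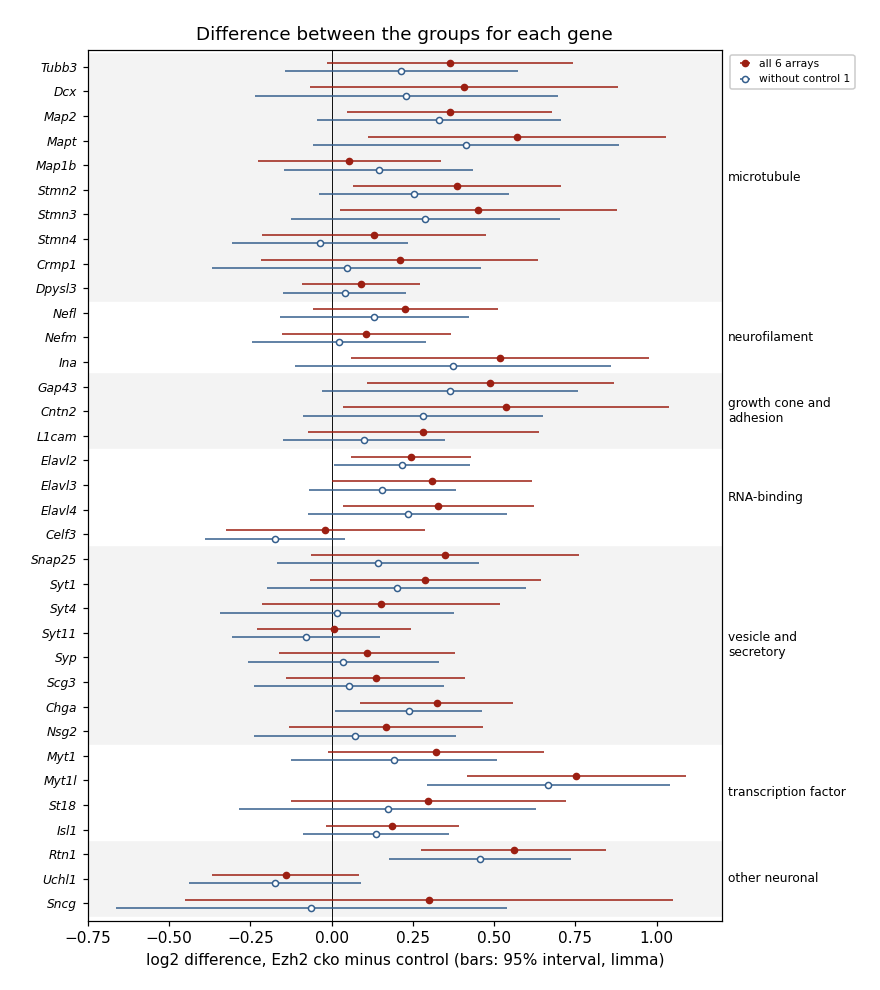
Log2 difference of each gene, *Ezh2* cko minus control, with its 95% interval from limma, over the 6 arrays (filled, red) and without control 1 (open, blue). The interval lay above 0 for 13 genes and held 0 for 22 over the 6 arrays; without control 1 it lay above 0 for *Elavl2*, *Chga*, *Myt1l* and *Rtn1*.

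The promoters of a few genes are shown because transcription factors of the basic helix-loop-helix class, which drive neurogenesis, bind E-boxes. Both proneural forms of the E-box, CAGCTG and CAGATG (read on both strands, CATCTG being the latter on the other strand), were searched in the 250 bases before the most upstream RefSeq start of each gene in GRCm38.p6. Of the 35 genes, 25 had a promoter in the table. CAGCTG was found in 5 of the 25 (20%) and in 12.7% of 27025 promoters, CAGATG in 7 (28%) and in 14.5%, and at least 1 of them in 12 (48%) and in 25.3%. The forms cannot overlap each other. The CCAAT box was found in 9 of the 25 (36%) and in 34.5% of all promoters, the GC box GGGCGG in 12 (48%) and in 33%, and the TATA box TATAAA in 4 (16%) and in 13%. A match describes the letters of the window and does not show binding. The 6 genes whose groups did not overlap were among the 25. Neither of the E-box forms searched was found for *Cntn2* and *Elavl2*, and the other 4 held at least 1. Other forms of the E-box were not searched. For these, 60 bases around the match nearest to the start are printed 5′ to 3′ on the strand of the gene, with the E-box in capitals. For *Tubb3*, in which neither form was found, the 60 bases before the start are printed.
Myt1l: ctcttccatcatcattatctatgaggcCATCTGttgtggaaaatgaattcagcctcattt
Rtn1: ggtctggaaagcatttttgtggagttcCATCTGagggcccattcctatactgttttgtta
Chga: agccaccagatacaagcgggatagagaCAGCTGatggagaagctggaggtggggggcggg
Elavl3: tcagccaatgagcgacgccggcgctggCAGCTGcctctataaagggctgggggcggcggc
Tubb3: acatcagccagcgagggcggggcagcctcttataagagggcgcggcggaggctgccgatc
These windows are at chr12:29528211-29528270 on the plus strand for *Myt1l*, chr12:72409222-72409281 on the minus strand for *Rtn1*, chr12:102554798-102554857 on the plus strand for *Chga*, chr9:22052034-22052093 on the minus strand for *Elavl3* and chr8:123411493-123411552 on the plus strand for *Tubb3*. Between the E-box and the start lie 140 bases in *Myt1l*, 194 in *Rtn1*, 110 in *Chga* and 37 in *Elavl3*.

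The 4 transcription factor genes were *Myt1*, *Myt1l* and *St18*, which encode zinc finger proteins of 1 family, and *Isl1*, which encodes a LIM homeodomain protein of early motor and sensory neurons. *Myt1l*, whose product represses non-neuronal genes in neurons, had the largest difference of the 35 genes. Its signal was 5.57, 5.80 and 5.86 in controls 1 to 3, and 6.36, 6.30 and 6.83 in *Ezh2* cko 1 to 3. The control signals were dim, below the array medians (5.68 to 5.72) on control 1 and little above them on controls 2 and 3. By contrast, 34 of the 35 genes, all but *Myt1l*, lay above the array median on every array. The groups did not overlap, and the lowest *Ezh2* cko array lay above the highest control. The difference was 0.75 (95% interval 0.42 to 1.09), a ratio of 1.69, with an adjusted p of 0.151 in limma. Without control 1 it was 0.67 (limma, adjusted p = 0.391). *Myt1* was at 7.42, 7.76 and 7.87 in the controls and at 7.78, 7.99 and 8.24 in the *Ezh2* cko. Here *Ezh2* cko 1 lay below control 3, so the groups overlapped, and the difference was 0.32 (limma, adjusted p = 0.683). *St18* differed by 0.30 and *Isl1* by 0.19, with overlapping groups in both.

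*Myt1l* has 4 other probe sets, all dimmer than the 1 that represents it. Their differences were 0.51, 0.22, -0.18 and -0.03. The set at 0.51 gave 4.84, 4.75 and 4.81 on the control arrays, against 4.998, 5.32 and 5.61 on the *Ezh2* cko arrays, again with no overlap. The mean over the 5 sets differed by 0.25. Over the whole list, 24 genes have several probe sets. For 15 of them the other sets had the sign of the representing set, and for 9 at least 1 set had the opposite sign. Of the 48 other sets, the 27 above the array median had a median difference of 0.20 with 26 positive, and the 21 at or below it had a median of 0.04 with 12 positive. Of the 83 probe sets of the list 71 were positive, and 0 passed the adjusted p in limma, which 0.184% of all probe sets passed as higher and 0.00444% as lower.

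**Figure D3:**
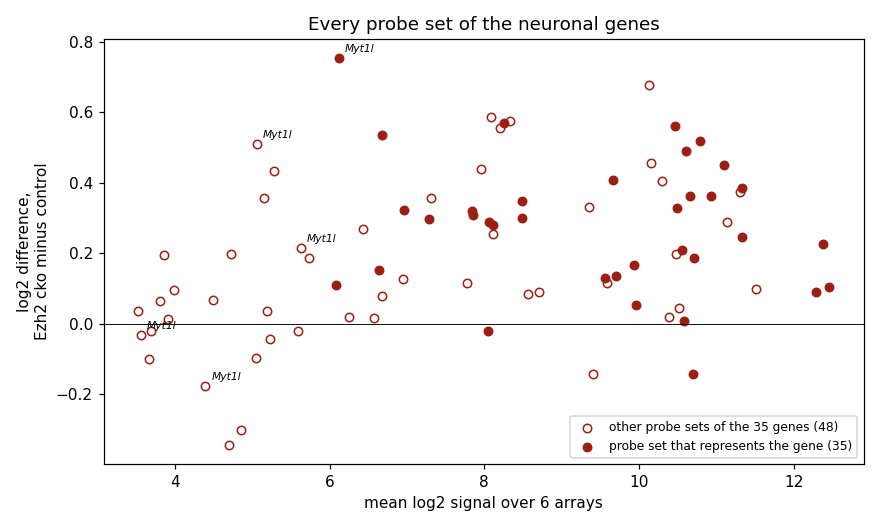
Log2 difference (*Ezh2* cko minus control, vertical axis) of the 83 probe sets of the 35 genes against their mean log2 signal over the 6 arrays. Filled points are the 35 sets that represent a gene and open points the 48 others; the negative differences lie mostly among dim open points, and the 5 sets of *Myt1l* are labelled.

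The 10 microtubule genes were positive without exception, with a median difference of 0.36, and 0 passed the adjusted p in limma. An unadjusted limma p under 0.05 was reached by 4 (40%), each higher (*Map2*, *Mapt*, *Stmn2* and *Stmn3*), against 6.12% of all genes. Without control 1, 9 were positive and 0 reached it, against 4.88% of all genes as higher. *Tubb3*, the tubulin used most widely to mark neurons, was at 10.18, 10.73 and 10.53 in the controls and at 10.68, 10.70 and 11.14 in the *Ezh2* cko. Control 1 was below and *Ezh2* cko 3 above the remaining arrays, which lay within the range of 10.53 to 10.73. The difference was 0.36, a ratio of 1.29 (limma, adjusted p = 0.683), and without control 1 it was 0.21. *Dcx*, which encodes doublecortin, a microtubule protein of migrating neurons, was at 9.10, 9.57 and 9.70 in the controls and at 9.51, 9.81 and 10.27 in the *Ezh2* cko. The groups overlapped, since *Ezh2* cko 1 lay below controls 2 and 3. The difference was 0.41, a ratio of 1.33 (limma, adjusted p = 0.725), and without control 1 it was 0.23. Leaving out control 1 and *Ezh2* cko 3 together brought *Tubb3* to 0.06 and *Dcx* to 0.03.

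*Mapt*, which encodes tau, a microtubule protein of axons, had the largest difference of the microtubule genes. It was at 7.66, 8.14 and 8.12 in the controls and at 8.11, 8.69 and 8.85 in the *Ezh2* cko. *Ezh2* cko 2 and 3 lay above the controls, whereas *Ezh2* cko 1 lay just below controls 2 and 3. The difference was 0.57 (95% interval 0.11 to 1.03; limma, adjusted p = 0.540). *Stmn3*, a stathmin that destabilises microtubules, was at 10.55, 11.03 and 11.05 in the controls and at 11.02, 11.28 and 11.68 in the *Ezh2* cko. Again *Ezh2* cko 1 lay below controls 2 and 3, and the difference was 0.45 (limma, adjusted p = 0.637). The other stathmins differed by 0.39 for *Stmn2* and 0.13 for *Stmn4*, and the latter was at -0.04 without control 1. *Map2*, a dendritic microtubule protein, differed by 0.36. The collapsin response mediators *Crmp1* and *Dpysl3* differed by 0.21 and 0.09. *Map1b*, the MAP of early axons, differed by 0.05 and did not follow the order of the arrays, with 10.12 on control 1 and 9.81 on *Ezh2* cko 3.

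The 3 neurofilament genes had a median difference of 0.23. *Ina* encodes alpha-internexin, an early intermediate filament of neurons, and was at 10.25, 10.74 and 10.62 in the controls and at 10.70, 10.97 and 11.49 in the *Ezh2* cko. Its groups overlapped through *Ezh2* cko 1 and control 2, and the difference was 0.52 (95% interval 0.06 to 0.98; limma, adjusted p = 0.601). *Nefl*, the light neurofilament chain, was at 12.08, 12.35 and 12.38 in the controls and at 12.26, 12.62 and 12.61 in the *Ezh2* cko. The difference was 0.23, and *Ezh2* cko 1 lay below controls 2 and 3. *Nefm*, the medium chain, differed by 0.11.

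Among the 3 genes of the growth cone and of axonal adhesion the median difference was 0.49. *Gap43*, a membrane protein of growth cones, was at 10.12, 10.39 and 10.60 in the controls and at 10.51, 11.02 and 11.03 in the *Ezh2* cko. Control 3 lay above *Ezh2* cko 1, and the difference was 0.49 (95% interval 0.11 to 0.87; limma, adjusted p = 0.516). *Cntn2*, an adhesion protein of axons, was at 5.91, 6.70 and 6.64 in the controls and at 6.73, 6.85 and 7.28 in the *Ezh2* cko. The groups did not overlap, but the gap between control 2 and *Ezh2* cko 1 was small beside the range of the controls (0.79). The difference was 0.54 (limma, adjusted p = 0.632), and without control 1 it was 0.28. This probe set had means of 6.42 in the controls and 6.95 in the *Ezh2* cko. Another *Cntn2* set was about as bright, with means of 6.64 and 6.72, but differed by only 0.08. The remaining sets of *Cntn2* differed by 0.02 and 0.36, so the size of its difference depends on the probe set. *L1cam*, an adhesion protein that binds *Cntn2*, differed by 0.28.

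Of the 4 genes of RNA-binding proteins, the 3 Elavl genes were positive and *Celf3* was not. The Elavl proteins bind AU-rich messages in neurons. *Elavl3* was at 7.39, 7.84 and 7.86 in the controls and at 7.87, 8.03 and 8.11 in the *Ezh2* cko. The groups were separated by the small step between control 3 and *Ezh2* cko 1, and the difference was 0.31 (limma, adjusted p = 0.659). *Elavl4* was at 10.13, 10.36 and 10.47 in the controls and at 10.45, 10.63 and 10.88 in the *Ezh2* cko, so that control 3 lay above *Ezh2* cko 1. It differed by 0.33 (limma, adjusted p = 0.606). *Elavl2* differed by 0.25 (95% interval 0.06 to 0.43; limma, adjusted p = 0.498), with controls from 11.15 to 11.24 and the *Ezh2* cko from 11.35 to 11.54, and by 0.22 without control 1. *Celf3*, a splicing regulator of neurons, was at 7.75, 8.22 and 8.21 in the controls and at 7.94, 8.03 and 8.16 in the *Ezh2* cko. Without control 1 its groups did not overlap in the opposite direction, with a difference of -0.17 (limma, adjusted p = 0.829).

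The 8 vesicle genes had the lowest median of the roles, 0.16, and 8 of 8 were positive. *Snap25*, a SNARE protein of vesicle fusion, was at 7.90, 8.47 and 8.57 in the controls and at 8.41, 8.73 and 8.84 in the *Ezh2* cko. *Ezh2* cko 1 lay below controls 2 and 3, and the difference was 0.35 (limma, adjusted p = 0.733). *Chga*, which encodes chromogranin A of dense-core vesicles, was at 6.63, 6.97 and 6.81 in the controls and at 7.06, 7.09 and 7.24 in the *Ezh2* cko. Its groups did not overlap, and the difference was 0.32 (95% interval 0.09 to 0.56; limma, adjusted p = 0.467). Without control 1 it was 0.24, and without control 1 and *Ezh2* cko 3 it was 0.18. The synaptotagmins, a family of vesicle proteins, differed by 0.29 for *Syt1*, 0.15 for *Syt4* and 0.01 for *Syt11*. *Syp*, a membrane protein of synaptic vesicles, differed by 0.11, *Scg3*, a granin of secretory granules, by 0.14 and *Nsg2*, an endosomal protein of neurons, by 0.17.

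*Rtn1*, a reticulon of the endoplasmic reticulum in neurons, was at 9.98, 10.24 and 10.35 in the controls and at 10.56, 10.92 and 10.77 in the *Ezh2* cko. The groups did not overlap, and for this gene *Ezh2* cko 2 was the highest array. The difference was 0.56 (95% interval 0.28 to 0.84; limma, adjusted p = 0.214), and it was 0.46 without control 1 and 0.45 without control 1 and *Ezh2* cko 3. *Sncg*, which encodes gamma-synuclein of peripheral and motor neurons, had the widest spread, at 7.61, 8.85 and 8.55 in the controls and at 8.12, 8.67 and 9.11 in the *Ezh2* cko. The groups overlapped over most of their range, and the difference was 0.30 (95% interval -0.45 to 1.05). *Uchl1*, a ubiquitin hydrolase abundant in neurons, was at 10.71, 10.98 and 10.64 in the controls and at 10.60, 10.64 and 10.66 in the *Ezh2* cko. Its difference of -0.14 was the lowest of the 35 (limma, adjusted p = 0.809).

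For 26 of the 35 genes the upper bound of the 95% interval lay under 1.75-fold, so a rise of that size lay outside the interval. For the other 9, among them *Myt1l*, *Mapt*, *Cntn2* and *Sncg*, the interval reached past that fold. Across the 6 arrays the signals of the 35 genes followed each other, with a median Pearson r of 0.83 over pairs of genes, as a description over arrays that hold both groups. The r between a gene and the mean of the other genes was highest for *Stmn3* (0.99) and *Myt1* (0.99), and it was below 0 only for *Map1b* (-0.54) and *Uchl1* (-0.17).

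Other neuronal genes that are not among the 35 had smaller differences in the median. Of 45 such genes, 42 had a probe set of their own. Of these 31 were positive, with a median difference of 0.08, and 0 passed the adjusted p in limma. At an unadjusted p under 0.05 in limma 9 (21.4%) were higher and 0 lower, against 6.12% and 2.75% of all genes. The largest differences were 0.64 for *Celf5*, 0.54 for *Celf4*, 0.40 for *Rbfox3*, which encodes the nuclear antigen NeuN, and 0.39 for *Cntn1*. The abundant messages *Stmn1* and *Tuba1a*, which dividing progenitors also contain, differed by 0.04 and 0.08. Of 24 neurogenic regulators 23 had a probe set, with 19 positive, a median of 0.13 and 0 past the adjusted p. Of these 4 (17.4%) had an unadjusted p under 0.05 in limma, each higher, against 6.12% of all genes. They were *Nhlh2*, *Pou4f1*, *Hes6* and *Gadd45g*. By size, the regulators that differed most were *Nhlh2* (0.63), *Ebf1* (0.52), *Pou4f1* (0.49) and *Ebf2* (0.35), and *Ebf1* and *Ebf2* did not reach that limit. *Rest*, the repressor of neuronal genes in non-neuronal cells, differed by 0.05, and the proneural *Neurog1* by -0.19. Without control 1 and *Ezh2* cko 3 together, 23 of the 42 other neuronal genes were positive, with a median of 0.005. At an unadjusted p under 0.05 in limma 2 of them were then higher and 4 lower. Of the 23 neurogenic regulators 11 were then positive, with a median of -0.02, and 0 were higher and 4 lower at that limit. Over all genes 4.56% were higher and 2.31% lower.

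The 20 markers of neural progenitors did not share the direction. Of these 9 were positive, with a median of -0.03, and 0 passed the adjusted p in limma. At an unadjusted p under 0.05 in limma 4 were higher and 3 lower, against 6.12% and 2.75% of all genes. *Lin28a*, an RNA-binding protein of early progenitors, differed by -0.65, *Sox3* by -0.44, *Fabp7* by 0.49 and *Hes1* by 0.38. *Sox2* and *Nes*, which define the neuroepithelium, differed by 0.03 and -0.03. The median deviation of the progenitor markers stayed between -0.06 and 0.10 on the 6 arrays.

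Markers of other cells that the dissected tissue could hold partly followed the same order of arrays. Of 13 mesenchyme markers 11 were positive, with a median of 0.20, and control 1 was the lowest array for 11. The sum of their linear signals was 11213 on control 1, 14186 to 14593 on the other controls and 15400 to 17542 in the *Ezh2* cko. These sums did not overlap, but the median deviations of the list did. The latter was 0.08 on control 2, beside 0.03 on *Ezh2* cko 1 and 0.06 on *Ezh2* cko 2. Gene by gene, the groups did not overlap for 4 that were higher (30.8%) and 1 that was lower, against 7.52% and 7.88% of all genes. *Prrx1* differed by 0.66, *Lum* by 0.46, *Foxc2* by -0.39 and *Col1a2* by 0.37, with 0 past the adjusted p in limma. Of 13 measured markers of cranial sensory and autonomic neurons, among which *Prph* and *Pou4f1* also stand on the lists above, 10 were positive with a median of 0.20. *Ret* differed by 0.89, *Pou4f1* by 0.49, *Prrxl1* by 0.37 and *Ntrk3* by 0.26. In limma 4 of the 13 (30.8%) were higher at an unadjusted p under 0.05 and 0 lower, against 6.12% and 2.75% of all genes. These 4 were *Ret*, *Pou4f1*, *Ntrk3* and *Tlx3*. *Ret* alone reached the limits set in the methods (1.85-fold, limma unadjusted p = 0.00377), and 0 passed the adjusted p. The sum of linear signals of these markers was 1962 to 2302 in the controls and 2356 to 3010 in the *Ezh2* cko. Such neurons also express many of the 35 genes, and their part in the differences was not tested. The 7 macrophage markers were positive with a median of 0.17, the sum of their linear signals was 834 to 1214 in the controls and 1189 to 1378 in the *Ezh2* cko, and control 1 was the lowest array for 6.

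Among 9 markers of surface ectoderm and epithelia, *Epcam* rose by 1.33 (limma, adjusted p = 0.00368) and *Cdh1* by 0.77 (limma, adjusted p = 0.0166), while the median was 0.09. At an unadjusted p under 0.05 in limma 4 of the 9 were higher and 0 lower, against 6.12% and 2.75% of all genes. The other 2 of these 4 were *Cldn7* at 0.61, with groups that did not overlap, and *Krt18* at 0.42. The sum of their linear signals was 724 to 834 in the controls and 1159 to 1302 in the *Ezh2* cko, highest on *Ezh2* cko 1, where the neuronal genes were lowest in that group. The epidermal markers *Krt5*, *Krt14* and *Trp63* differed by -0.11, -0.15 and -0.06. The medians of 7 endothelial and 6 measured erythroid markers were 0.07 and -0.05. No marker can be called absent, since these signals have no level that marks absence. The part of these cells in the neuronal signals was not tested.

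**Figure D4:**
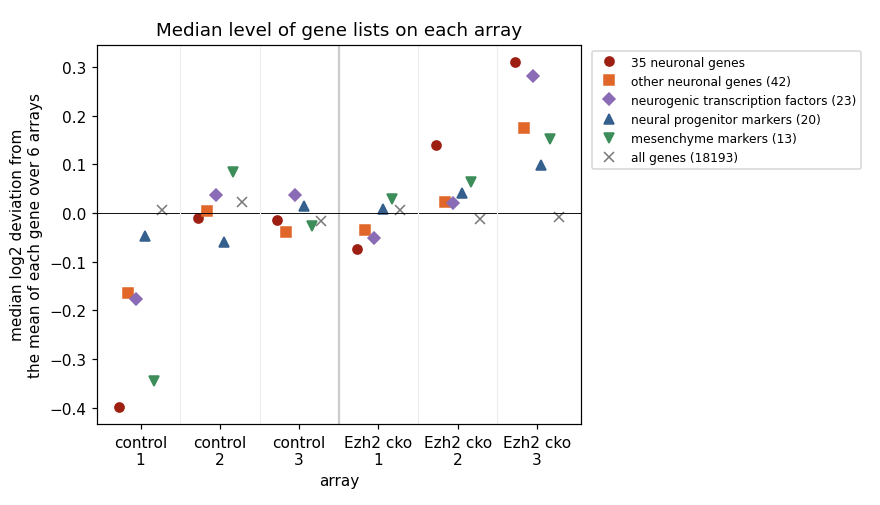
Median log2 deviation of gene lists from the mean of each gene over the 6 arrays (vertical axis), for each array (horizontal axis, controls to the left of the grey line). Points of 1 colour are 1 list: the 35 neuronal genes range from -0.40 on control 1 to 0.31 on *Ezh2* cko 3, the mesenchyme markers share the low value on control 1 (-0.34), and the progenitor markers stay between -0.06 and 0.10.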

How the data were processed

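The authors deposited 1 log2 signal for each probe set and sample, made with RMA (version not given in the sources used here), which subtracts background, equalises the distributions of the arrays and summarises the probes of a set. After 64 control probe sets were left out, 45037 entered a linear model of *Ezh2* cko minus control with no covariate (limma 3.58.1 under R 4.3.3, moderated by eBayes), with Benjamini-Hochberg adjustment over all of them. Means are given with the SD over 3 samples. The fit was tested on simulated data with known changes. Symbols come from the platform's annotation; 34945 probe sets have 1 symbol, 932 several and 9160 none.

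The 35 genes, the other lists and the tests were chosen with earlier results of these data known. By the naming rule, values on each array are given for *Tubb3*, *Dcx* and the 2 genes of each role with the largest absolute difference, and up to 4 genes of each other list are named. The values on arrays of *Celf3*, *Uchl1*, *Elavl2* and *Map1b*, and *Stmn1*, *Tuba1a*, *Rest*, *Neurog1*, *Hes6*, *Gadd45g*, *Tlx3*, *Sox2*, *Nes*, the epidermal markers and the midbrain markers, were added after their values were seen. Promoters are from RefSeq (GRCm38.p6), 25 of 35 matched. Array weights, the unpaired test of the methods, another variance prior, removal of dim probe sets, 3 other normalizations, other probe sets, the replicate block and leaving out arrays were tried as alternatives.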

Additional observations from a re-analysis of the deposited data

How the results depend on the processing

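No gene of the 35 passed the adjusted p in limma under any alternative run. Of 595 differences of single genes under alternatives, 22 changed sign, in 11 genes, and 0 passed the test. Leaving out control 1 and *Ezh2* cko 3 together was added once the data had been seen. The median was then 0.0645, groups did not overlap for 12 genes (7 higher, 20%, and 5 lower, 14.3%, against 17.9% and 18.7% of all genes), and the differences were -0.136 for *Stmn4*, -0.123 for *Crmp1*, -0.0356 for *Nefm*, -0.0893 for *Syt4*, -0.121 for *Syt11*, -0.0820 for *Syp*, -0.0406 for *Scg3*, -0.0424 for *Nsg2* and -0.301 for *Sncg*. Leaving out each array in turn gave medians from 0.156 (without control 1) to 0.376, and 0 to 1 genes at the threshold of the methods (*Myt1l*, without control 3, *Ezh2* cko 1 or *Ezh2* cko 2). Groups did not overlap for 7 to 22 genes, where fewer arrays have to be separated. Without *Ezh2* cko 1, 22 were higher (62.9%, against 11.2% of all genes), without control 2, 13 (37.1%, against 13.3%), and without control 3, 12 (34.3%, against 12%) besides 1 lower. The differences that changed sign there ranged from -0.0526 (without control 2) to 0.147 for *Map1b*, from -0.0365 (without control 1) to 0.223 for *Stmn4*, from -0.175 to 0.0599 (without control 2) for *Celf3*, from -0.0796 (without control 1) to 0.0794 for *Syt11*, from -0.0089 (without *Ezh2* cko 3) to 0.181 for *Syp* and from -0.0630 (without control 1) to 0.555 for *Sncg*. The mean over probe sets gave -0.0437 for *Map1b*, and array weights gave -0.0066 for *Syt11*. The causes were not tested.

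The labels do not say whether the replicate numbers pair the samples. The deviations of same-numbered samples correlated at 0.06, -0.20 and 0.06 over probe sets, and those of the other pairs at -0.16 to 0.12. These values show no pairing but cannot exclude one, since each deviation is from a mean of only 3 arrays. With the replicate number as a block, 0 of the 35 genes passed the adjusted p in limma, 21 rather than 13 had an unadjusted p under 0.05 (60%, against 6.47% of all genes as higher), and 59 rather than 85 probe sets of all passed.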
